A study of Homo sapiens with 24 samples.

Results

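ANGPTL4 and 7 genes of the PPAR system (PLIN2, PDK4, CPT1A, FABP1, ACADVL, PPARA and PPARG) were followed across 24 arrays of HT29 cells. HT29 cells derive from a human colon adenocarcinoma and are kept as a permanent line. The members were taken by gene name, as all probes that carry one of the 8 names and are not controls. These were 13 of the 50599 probes, read by 31 of the 58717 spots, and 12 of the 13 passed the filter on dim probes, so that all 8 genes were among the 20703 genes tested. The question was whether the rise of ANGPTL4 after short-chain fatty acids was accompanied by a wider rise of PPAR target genes.

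The cells formed 6 groups of 4 arrays each, all taken at 6 h. NT cells were left without treatment. C3/C2 cells received 30 mM propionate with 15 mM acetate, which are short-chain fatty acids, and SN cells received the culture supernatant of Propionibacterium freudenreichii diluted 1/2, which holds these acids among its metabolites. TRAIL cells received the death receptor ligand TRAIL at 100 ng/ml together with 2 µg/ml of the anti-Flag M2 antibody, and TRAIL+C3/C2 and TRAIL+SN cells received both kinds of treatment. All cells were of the same line, which was grown in DMEM medium with serum. In SN and TRAIL+SN the supernatant, itself prepared in DMEM, made up part of the medium. The labels name no group with a matched medium without bacteria, so other differences of the medium cannot be told apart from the bacterial metabolites. The arrays lay on 4 slides. NT and C3/C2 shared slides 1 and 2, slide 3 held SN and TRAIL, and slide 4 held both co-treatments, so that for every treatment except C3/C2 the group and the slide cannot be told apart in a comparison with NT. As the treatments can kill cells and RNA was taken from whole cultures, fewer cells of a kind and less RNA per cell cannot be told apart either. Per the methods, each group comes from 2 experiments with duplicates, and the labels do not say which arrays share an experiment. The 4 arrays of a group are thus not 4 independent cultures, and a p-value measures only the spread between these arrays. After removal of the group means, all 12 arrays of replicates 1 and 2 lay on one side of the first principal component and all 12 arrays of replicates 3 and 4 on the other. As a second reading, chosen after the data were seen, replicates 1 and 2, and 3 and 4, were therefore averaged to 1 value each, without and with the pair as a block. No member then gained or lost a call against NT, while several differences under the fold of 2 no longer passed, as stated beside them.

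PPARs (PPARA, PPARD and PPARG) are nuclear receptors that are activated by fatty acids and their derivatives. They bind DNA together with an RXR partner at repeats of the letters AGGTCA and raise genes for fatty acid transport, lipid droplets and fatty acid oxidation. ANGPTL4, a secreted inhibitor of lipoprotein lipase, is one of their best known targets, and in colon cells it is known to respond to short-chain fatty acids. It is also a target of hypoxia, glucocorticoids and TGF-beta in other cells.

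The DNA before the start of 3 genes is shown. That of CREB3L3 holds a loose form of the AGGTCA repeat, and those of ANGPTL4 and PLIN2 hold neither this repeat nor a single AGGTCA. Sites outside the stretch shown were not searched. ANGPTL4 and PLIN2 are members, and CREB3L3 is the gene of the PPAR lists whose fitted change came next to that of ANGPTL4. The sequences are the 250 bases before the annotated start in RefSeq (GRCh38.p14), written from 5′ to 3′ on the strand of the gene. ANGPTL4 lies at chr19:8363905-8364154 on the plus strand, PLIN2 at chr9:19127493-19127742 on the minus strand and CREB3L3 at chr19:4153381-4153630 on the plus strand. Capitals mark GGGCGG (the GC box) and TATAAA (the TATA box) on either strand, and the repeat AGGNCANAGGNCA with AGGTCA inside it.
ANGPTL4: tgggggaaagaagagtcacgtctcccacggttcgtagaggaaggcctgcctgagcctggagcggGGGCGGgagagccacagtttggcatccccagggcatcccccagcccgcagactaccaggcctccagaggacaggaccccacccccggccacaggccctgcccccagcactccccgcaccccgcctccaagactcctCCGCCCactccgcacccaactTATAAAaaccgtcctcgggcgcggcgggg
PLIN2: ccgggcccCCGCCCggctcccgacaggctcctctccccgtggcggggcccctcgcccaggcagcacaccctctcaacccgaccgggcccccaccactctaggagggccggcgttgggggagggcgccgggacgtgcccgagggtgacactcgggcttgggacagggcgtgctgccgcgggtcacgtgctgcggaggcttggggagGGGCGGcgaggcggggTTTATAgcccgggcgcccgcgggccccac
CREB3L3: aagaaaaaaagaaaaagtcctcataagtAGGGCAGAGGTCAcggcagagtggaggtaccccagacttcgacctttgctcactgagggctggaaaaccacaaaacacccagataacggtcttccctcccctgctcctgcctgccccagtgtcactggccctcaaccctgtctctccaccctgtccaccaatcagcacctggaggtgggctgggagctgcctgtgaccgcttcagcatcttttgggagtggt

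All 8 members were matched by symbol, with 15 windows of this kind, since ACADVL and PPARA have 2 annotated starts and PPARG has 6. The exact repeat AGGTCANAGGTCA, searched on both strands, was in none of the 15 windows and in 0.0171% of all 35116 windows. The looser form AGGNCANAGGNCA was in none of the 15 either and in 0.268% of all windows, among them that of CREB3L3, where it lies at positions -222 to -210 from the start and contains 1 AGGTCA. A single AGGTCA was in 4 of the 15 windows (that of FABP1 and 3 of PPARG) and in 12.1% of all windows. GGGCGG was in 6 of the 15 and in 42.6% of all, and TATAAA in 6 of the 15 and in 3763 of all 35116. The PPARG windows at chr3:12288810-12289059 and chr3:12288820-12289069 share most of their bases, and each holds 1 AGGTCA and 1 TATAAA. A match in the shared bases counts for both windows. In ANGPTL4 and in PLIN2 the TATAAA match, on the minus strand in PLIN2, lies at positions -29 to -24. These matches describe letters in a short window, and binding was not measured.

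Levels are given as log2 of the spot intensity minus the 75th percentile of the array, so that a level of 0 is that percentile, and the levels of different probes cannot be set against each other. Replicates of a group correlated with r between 0.993 and 0.998 over the genes tested. The 75th percentile of intensity lay between 453 and 1009, and 49.8 to 57.8% of probes were well above background, the mark that the scanner software gives to a spot clearly brighter than its background. The percentile had a median of 883 in NT and of 503 in TRAIL+C3/C2. All 10 markers of colon epithelium that were checked, among them CDX2, VIL1 and KRT20, were well above background on all 24 arrays. Of 6 markers of fat and liver cells, ADIPOQ and LEP were so on no array, ALB on 1, PLIN1 on 12, CYP4A11 on 22 and APOA1 on 24. Of 6 markers of fibroblasts and endothelium, COL1A2 and COL3A1 were so on none, PDGFRB on 1, COL1A1 on 16, and PECAM1 and VWF on 24. Of the blood cell markers, PTPRC, CD14 and CD68 were so on all 24 and CD3E on 10.

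ANGPTL4 went from below the detection limit to a high level in each of the 4 groups that received the short-chain fatty acids or the supernatant, and stayed below the limit with TRAIL alone. It was read by 1 probe, at chr19:8439197-8439256 on the plus strand (hg19, the build of the files), designed on NM_139314. In NT its level was -6.43, -6.14, -6.82 and -6.59 in replicates 1 to 4. In C3/C2 it was 1.22, 1.18, 1.13 and 1.15. In SN it was 2.02, 2.10, 1.66 and 1.65. The probe was well above background on no array of NT and on all 4 arrays of C3/C2 and of SN, so the groups did not overlap. In TRAIL the level was -7.46, -7.00, -6.20 and -7.02, again with no array well above background. In TRAIL+C3/C2 it was 1.67, 1.64, 1.55 and 1.63. In TRAIL+SN it was 2.31, 2.26, 1.94 and 1.83. The arrays of the 4 groups with the acids or SN all lay above those of NT and TRAIL, with no overlap.

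As NT gave no measured level, the rise of ANGPTL4 has a lower bound. It takes, for each dim array, the higher of the probe's own level and the lowest level of any probe well above background. Relative to NT it came to at least 119-fold for C3/C2 and at least 191-fold for SN. For the co-treatments it was at least 162-fold (TRAIL+C3/C2) and at least 224-fold (TRAIL+SN). Fitted log2 differences were 7.67, 8.35, 8.12 and 8.58 in this order, each with an SE of 0.19 and n = 4 against 4 (limma, adjusted p = 6.35e-18, 1.24e-18, 1.29e-18 and 5.17e-19). These fitted values depend on levels below background. By them ANGPTL4 ranked 1 of 20703 genes with C3/C2 and with SN, and 3 with each co-treatment. With TRAIL alone the fitted log2 difference was -0.43 (SE 0.19), with an adjusted p of 0.092 and both groups below background.

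The rise could be checked within slides. Within slide 2 (3 NT and 3 C3/C2 arrays) the fitted log2 difference of ANGPTL4 was 7.67 (limma, adjusted p = 2.76e-06), and on slide 1, with 1 array of each, it was 7.66 with no test. On slide 3 the level with SN was at least 156-fold higher than with TRAIL. With another background correction (normexp on the raw signals) the lower bounds against NT were between 26.0 (C3/C2) and 46.8 (TRAIL+SN).

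**Figure D1:**
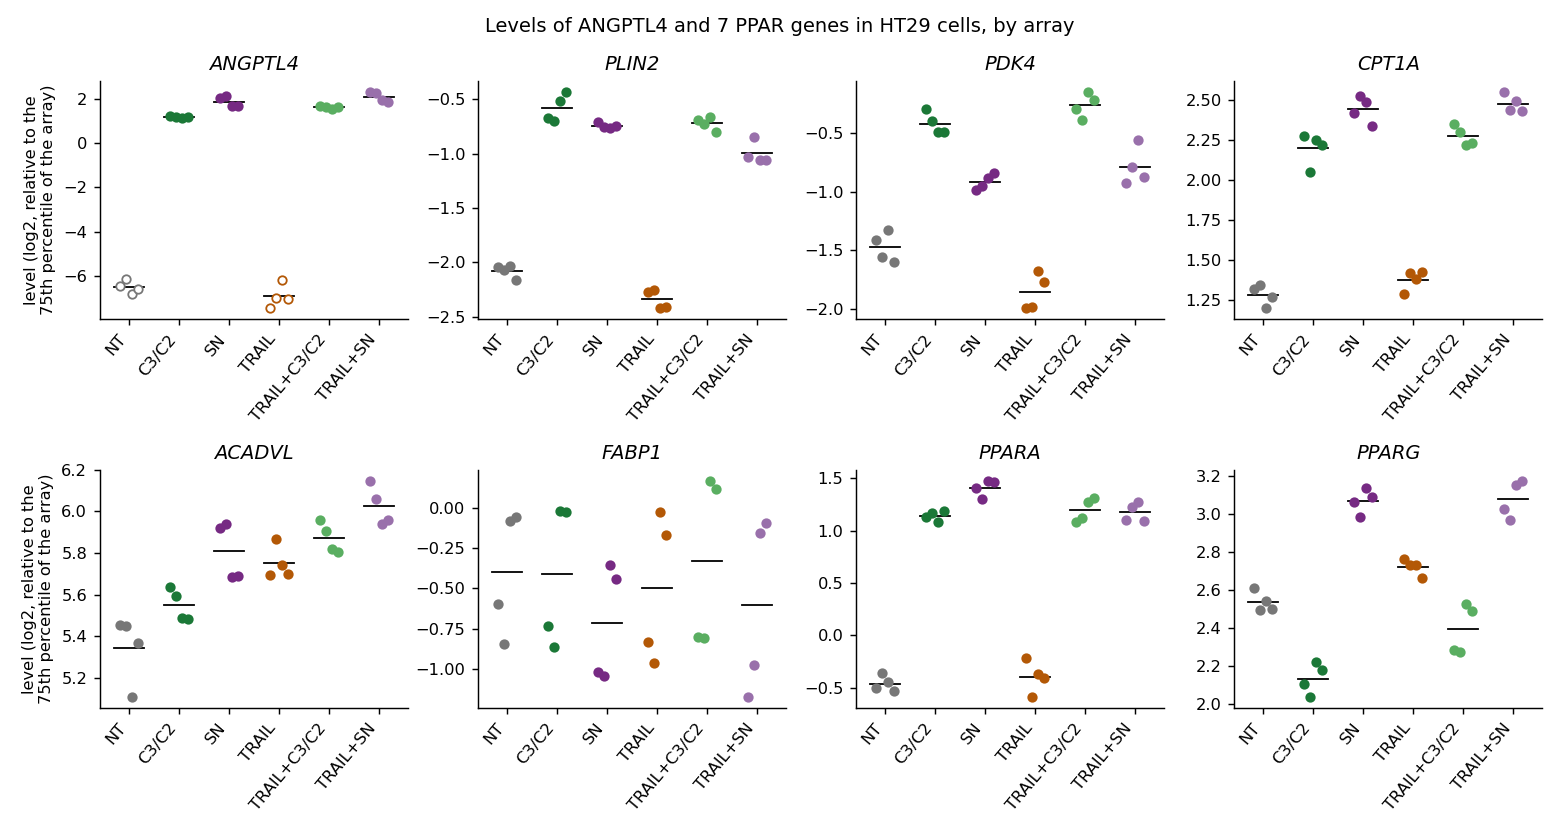
Each panel plots 1 gene, with its level on the vertical axis (log2, with the array's 75th percentile at 0) for the 4 arrays of each group and a line at the group mean. Filled points are groups with all 4 arrays well above background and open points are groups with fewer, which here are NT and TRAIL for ANGPTL4, at levels from -7.46 to -6.14 against 1.13 to 2.31 in the other 4 groups.

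The ANGPTL4 level was higher with SN than with C3/C2. Its 4 SN arrays, from 1.65 to 2.10, all lay above its 4 C3/C2 arrays, from 1.13 to 1.22. The difference was 0.69 on the log2 scale (1.61-fold, SE 0.19, limma adjusted p = 0.0054, or 0.058 and 0.049 with the pairs averaged, without and with their block; exact permutation p = 0.0286, two-sided, the smallest that 4 against 4 can give), which is under the fold of 2 used for calls. Of the genes tested, 47.4% passed the adjusted p in this comparison at any fold and 5.69% also passed the fold. SN and C3/C2 lay on different slides. Both co-treatments lay on slide 4, and there the difference was 0.46 (SE 0.19, adjusted p = 0.062), with no overlap of the arrays. In that comparison 37.6% of genes passed at any fold and 3.53% with the fold.

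Adding TRAIL changed the ANGPTL4 level little beside the rise itself. TRAIL+C3/C2 was above C3/C2 by 0.45 (difference minus and plus 2 SE, 0.071 to 0.83; adjusted p = 0.071), and the 4 arrays of each did not overlap. TRAIL+SN was above SN by 0.22 (-0.15 to 0.60; adjusted p = 0.45), with overlap. Neither passed the threshold here. Over the other settings the adjusted p of the first lay between 0.00075 and 0.69 and passed under 2 of 22 (normexp and a fit of these groups alone). Scaling to spike-in controls turned both differences, to -0.084 and -0.37. The departures from additivity, 0.88 (SE 0.27, adjusted p = 0.089) and 0.65 (SE 0.27, adjusted p = 0.087), include the NT and TRAIL levels that lie below background. Without TRAIL replicate 3, whose level was the highest of that group, the first of them was 1.11 with an adjusted p of 0.0050.

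Among the other 7 members, PLIN2, PPARA, PDK4 and CPT1A rose in at least some of these groups, by 2- to 4-fold, and ACADVL, FABP1 and PPARG passed the fold of 2 in no treatment. A gene was called where its fold reached 2 and its adjusted p lay under 0.05. With C3/C2, 4 of the 8 members were called higher (ANGPTL4, PLIN2, PDK4 and PPARA), where 13.5% of all genes tested were. With SN 4 of 8 were (ANGPTL4, PLIN2, CPT1A and PPARA), against 14.2% of all. With TRAIL+C3/C2 the same 4 genes as with C3/C2 were called, against 16.2% of all, and with TRAIL+SN the same 4 as with SN, against 16.1% of all. TRAIL called 0 of 8 higher, against 0.749% of all. No member was called lower in any treatment, where the share of all genes was 6.18% (C3/C2), 9.75% (SN) and 2.18% (TRAIL), and 7.93% (TRAIL+C3/C2) and 10.1% (TRAIL+SN) with both agents. The 5 treatments share the NT arrays, so these counts are not independent of each other. The members were chosen with earlier results of these data known, and the rise of ANGPTL4 was the starting point of the question. The counts of members beside the shares of all genes are therefore a description only. Without the minimum fold, TRAIL had 2 members higher (ACADVL and PPARG, against 20.3% of all genes) and 2 lower (PLIN2 and PDK4, against 13.1%). With the pairs averaged none of these 4 passed, and with their block ACADVL and PDK4 did. With limma's unadjusted p under 0.05 and the fold of 2, no member and 3.03% of all genes passed for TRAIL.

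**Figure D2:**
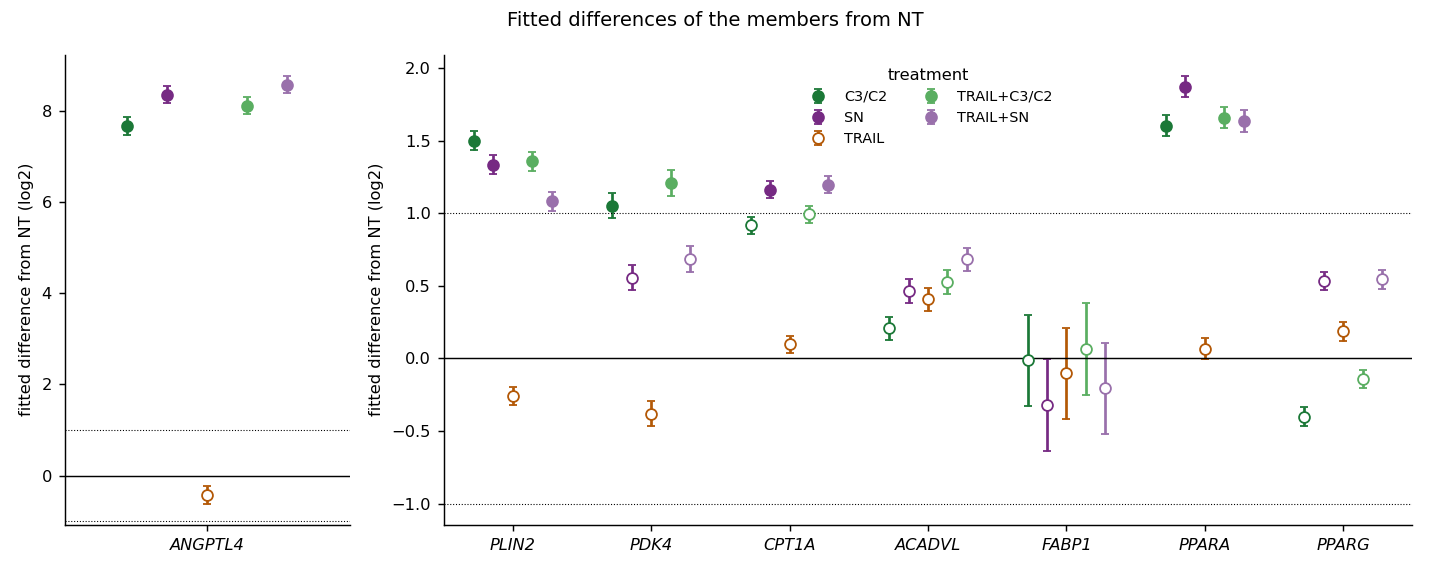
Points are the fitted differences from NT on the log2 scale for each member and treatment, with bars of 1 SE (n = 4 against 4); ANGPTL4 has its own axis. Filled points passed both the adjusted p and the fold of 2, drawn as dotted lines, and all TRAIL points are open; the ANGPTL4 points rest on NT levels below background.

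PLIN2, or perilipin 2, coats lipid droplets and is a common marker of PPAR activity. Its main probe, at chr9:19116370-19116429 on the minus strand, gave -2.04, -2.07, -2.04 and -2.17 in NT. It gave -0.67, -0.70, -0.52 and -0.43 in C3/C2. It gave -0.71, -0.75, -0.77 and -0.75 in SN. All arrays of both treatments lay above NT, and those of SN lay below those of C3/C2. PLIN2 rose 2.83-fold with C3/C2 (log2 1.50, SE 0.064, adjusted p = 2.18e-14) and 2.52-fold with SN. It rose 2.56-fold with TRAIL+C3/C2 and 2.12-fold with TRAIL+SN. The TRAIL+SN call was lost under 5 settings, with log2 values of 0.89 (array median and the deposited table), 0.97 (quantile normalization and normexp) and 0.56 (spike-in controls), and the TRAIL+C3/C2 call with spike-in controls (0.64). With TRAIL alone the level was from -2.42 to -2.25, below every NT array, by 0.26 on the log2 scale (adjusted p = 0.0036, or 0.12 and 0.076 with the pairs averaged, under the fold of 2). By the main probe PLIN2 was thus lower with SN than with C3/C2, by 0.16 (adjusted p = 0.041). By it PLIN2 was also lower with TRAIL+SN than with TRAIL+C3/C2, by 0.27 (adjusted p = 0.0019). This is the opposite order to ANGPTL4, and the other probes of PLIN2 differed on it. With the pairs averaged neither passed (adjusted p = 0.24 and 0.086, or 0.19 and 0.057 with their block). The first of these differences turned to 0.0077 when arrays were scaled to their median and to 0.085 when they were scaled to spike-in controls.

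The other PLIN2 probes also rose, from low levels. One, at chr9:19123403-19123462, passed the background mark on 1 array of NT and on all arrays of the 4 groups with the acids or SN. Its fitted log2 differences, which rest on NT levels that are mostly below background, were 1.14 (SN), 1.36 (TRAIL+C3/C2) and 1.42 (TRAIL+SN), and 0.62 with C3/C2 (adjusted p = 0.028, under the fold of 2). Against the main probe, its SN arrays, from -4.36 to -4.21, all lay above its C3/C2 arrays, from -5.08 to -4.57. Its means were -3.98 in TRAIL+SN and -4.05 in TRAIL+C3/C2, with overlap. The last, at chr9:19129738-19129797, carries the PLIN2 name but was designed on ENST00000494753. It was well above background on no array of NT and TRAIL and was higher by at least 4.94-fold (C3/C2) and 2.70-fold (SN), and 4.86-fold (TRAIL+C3/C2) and 3.41-fold (TRAIL+SN). Like the main probe, it had a lower mean with SN (-4.29) than with C3/C2 (-3.42), with overlap of the arrays.

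PDK4, a kinase that turns off pyruvate dehydrogenase and so spares glucose when fatty acids are burnt, is a classical PPAR target. It was read at chr7:95213307-95213366 on the minus strand. Its level was -1.41, -1.56, -1.33 and -1.60 in NT. It was -0.30, -0.40, -0.50 and -0.49 in C3/C2. It was -0.98, -0.95, -0.89 and -0.85 in SN. C3/C2 was the highest of these and SN lay between, with no overlap. PDK4 rose 2.07-fold with C3/C2 (log2 1.05, SE 0.088, adjusted p = 9.67e-10) and 2.31-fold with TRAIL+C3/C2. On the log2 scale the difference was 0.56 for SN and 0.68 for TRAIL+SN, both past the adjusted p and under the fold of 2. With TRAIL alone it was -0.38 (adjusted p = 0.0021). The level with SN was below that with C3/C2 by 0.50 (adjusted p = 9.79e-05) and that with TRAIL+SN below that with TRAIL+C3/C2 by 0.52 (adjusted p = 7.81e-05). The C3/C2 call is close to the fold of 2 and was lost under 5 settings, with values between 0.75 and 0.97. The TRAIL+C3/C2 call was lost with the array median and the deposited table (0.86) and with spike-in controls (0.49).

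CPT1A carries long-chain fatty acids into mitochondria and is the rate-controlling step of their oxidation. It was read at chr11:68527063-68527122 on the minus strand by 10 spots. Its level was from 1.20 to 1.34 in NT, from 2.05 to 2.27 in C3/C2 and from 2.34 to 2.52 in SN. The 3 groups did not overlap. CPT1A rose 2.24-fold with SN (log2 1.16, SE 0.058, adjusted p = 2.08e-13) and 2.29-fold with TRAIL+SN. With C3/C2 it was 1.89-fold and with TRAIL+C3/C2 1.99-fold higher, past the adjusted p and just under the fold of 2. SN exceeded C3/C2 by 0.24 (adjusted p = 0.0017) and TRAIL+SN exceeded TRAIL+C3/C2 by 0.20 (adjusted p = 0.0085). With the pairs averaged these were 0.052 and 0.12, and with their block only the first passed. The TRAIL+SN call was lost with spike-in controls (0.67). With TRAIL the level, from 1.29 to 1.42, overlapped that of NT.

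ACADVL, the enzyme of the first step of long-chain fatty acid oxidation inside mitochondria, changed less than 2-fold everywhere. It was read at chr17:7128439-7128498 on the plus strand. Its level was from 5.11 to 5.45 in NT and from 5.94 to 6.15 in TRAIL+SN, the group farthest from NT. The difference there was 0.68 (SE 0.080, adjusted p = 1.55e-07). With TRAIL alone it was 0.41 and with C3/C2 0.21, which became -0.094 when arrays were scaled to their median.

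FABP1 binds fatty acids in the cytosol of liver and intestinal cells and is a strong PPARA target there. It passed neither the fold of 2 nor the adjusted p in any treatment when the 4 arrays of a group were taken as unpaired. Its main probe, at chr2:88422598-88424046 on the minus strand across an exon junction, gave -0.60, -0.85, -0.08 and -0.06 in NT. It gave -0.73, -0.86, -0.02 and -0.02 in C3/C2. It gave -1.02, -1.05, -0.35 and -0.44 in SN. In all 6 groups both replicates 1 and 2 lay below both replicates 3 and 4, by 0.79 on average on the log2 scale, which widened the SD of a group to between 0.37 and 0.55. The difference from NT was -0.014 with C3/C2 (difference minus and plus 2 SE, -0.64 to 0.62) and -0.32 with SN (-0.95 to 0.31; adjusted p = 0.38). SN lay below NT in each of the 4 pairs of the same replicate number, by differences of -0.42, -0.20, -0.27 and -0.39. With the replicate number as a block, the adjusted p was 0.00084 for SN and 0.019 for TRAIL+SN (difference -0.21), and with the pairs averaged and blocked it was 0.019 for SN. The block also brought SN against C3/C2 (-0.31) to 0.0021 and TRAIL+SN against TRAIL+C3/C2 (-0.27) to 0.0065, all under the fold of 2. The other FABP1 probe was well above background on no array.

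The receptors differed among themselves. PPARA, the form that is prominent in liver, was read by 2 probes that disagreed in size. The brighter one, at chr22:46639178-46639237 on the plus strand, gave -0.50, -0.36, -0.44 and -0.54 in NT. It gave 1.13, 1.17, 1.08 and 1.19 in C3/C2. It gave 1.40, 1.30, 1.48 and 1.46 in SN. All arrays with the acids or SN lay above all NT arrays. By it PPARA rose 3.03-fold after C3/C2 (log2 1.60, SE 0.073, adjusted p = 6.38e-14), 3.66-fold after SN, 3.15-fold after TRAIL+C3/C2 and 3.11-fold after TRAIL+SN. The other probe, at chr22:46615754-46615813, was well above background on all 24 arrays and differed from NT by 0.22 with C3/C2 (adjusted p = 0.12) and by 0.63 with SN (adjusted p = 8.24e-05), under the fold of 2 in every treatment. The size of the PPARA rise thus depends on the probe, and with the mean of both the calls were lost for C3/C2 (0.91) and TRAIL+C3/C2 (0.97). Spike-in controls also ended the TRAIL+C3/C2 call (0.94).

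PPARG, the form of fat cells that is also abundant in colon epithelium, moved in opposite directions with C3/C2 and with SN, each time by less than 2-fold. It was read at chr3:12458499-12458558 on the plus strand by 10 spots. Its level was 2.61, 2.49, 2.54 and 2.50 in NT. It was 2.10, 2.04, 2.22 and 2.18 in C3/C2. It was 3.06, 2.99, 3.14 and 3.09 in SN. The C3/C2 arrays all lay below NT and the SN arrays all lay above. The difference from NT was -0.40 with C3/C2 (SE 0.065, adjusted p = 1.39e-05) and 0.53 with SN (adjusted p = 2.44e-07). SN exceeded C3/C2 by 0.93 (1.91-fold, adjusted p = 8.33e-10), across slides, and TRAIL+SN exceeded TRAIL+C3/C2 by 0.69 on the same slide (adjusted p = 6.80e-08). The other PPARG probe, at chr3:12434128-12434187, gave -0.46 with C3/C2 and 0.29 with SN (adjusted p = 1.63e-05 and 0.0016 among probes). With TRAIL the main probe differed by 0.19 and the other by -0.032.

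PPARD, the receptor of the family that most tissues express, was not a member and was read by 2 probes that both rose. Its brighter probe was at 1.05, 1.07, 1.15 and 1.21 in NT. It was at 2.62, 2.45, 2.76 and 2.72 in C3/C2. It was at 3.63, 3.49, 3.44 and 3.47 in SN. The 3 groups did not overlap, and the rise of PPARD on the log2 scale was 1.52 (C3/C2) and 2.39 (SN), and 1.86 (TRAIL+C3/C2) and 2.63 (TRAIL+SN), with adjusted p from 7.29e-18 to 6.68e-14 among probes. Of all probes tested, 13.3, 14.1, 16.4 and 16.1% were called higher in these comparisons. The other probe rose by 1.08, 1.60, 1.35 and 2.05 in the same order. With TRAIL the brighter probe differed by 0.49 (adjusted p = 2.07e-05) and the other by -0.12 (adjusted p = 0.42).

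**Figure D3:**
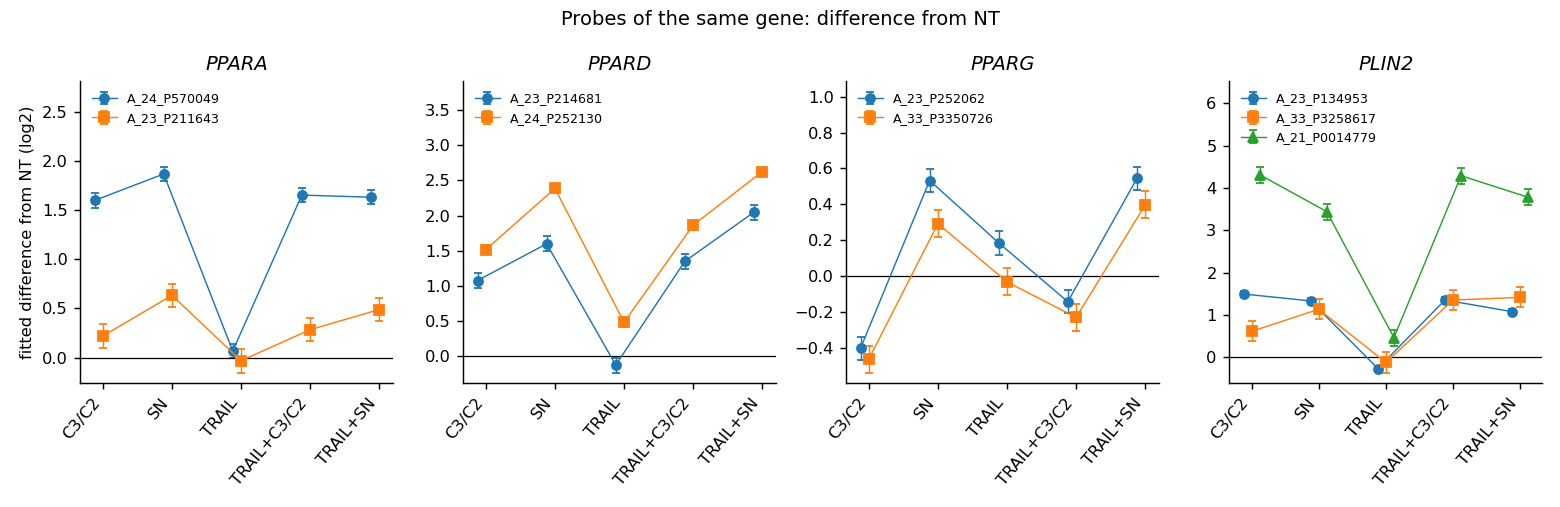
Points show the fitted difference from NT on the log2 scale, with bars of 1 SE, for each probe that passed the filter of PPARA, PPARD, PPARG and PLIN2, by treatment. The probes of PPARD and those of PPARG have the same sign in the 4 groups with the acids or SN and opposite signs with TRAIL, those of PPARA differ in size (1.60 and 0.22 with C3/C2), and the PLIN2 probe with the largest difference has NT levels below background.

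The wider pathway was read from 8 hand-written lists of PPAR receptors, partners and targets with 123 genes, of which 105 were tested. The lists were chosen with earlier results of these data known. Without the members 97 tested genes were left. Of these, 19 were called higher and 6 lower with C3/C2 (19.6 and 6.19%, against 13.5 and 6.18% of all genes), with a median log2 difference of 0.23 against 0.076 over all genes. With SN 24 were called higher and 7 lower (24.7 and 7.22%, against 14.2 and 9.75%), with a median of 0.38 against -0.016. TRAIL+C3/C2 had 19 higher and 6 lower (19.6 and 6.19%, against 16.2 and 7.93%), with a median of 0.27 against 0.10. TRAIL+SN had 23 higher and 8 lower (23.7 and 8.25%, against 16.1 and 10.1%), with a median of 0.28 against 0.036. With TRAIL alone 0 of the 97 were called in either direction, with 19 higher and 10 lower at an adjusted p under 0.05 and no minimum fold. Scaled to spike-in probes, 12 of the 105 were called higher and 20 lower in TRAIL+C3/C2, and 17 and 15 in TRAIL+SN, where that scaling moved the median of all genes by -0.71 and -0.53.

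In what follows, RXRA, ACADM, HADHA, CA9 and FKBP5 are familiar genes of their lists that were picked after their values were seen. Among receptors, partners and coregulators, 4 of 17 were called higher and 4 lower with C3/C2, and 5 higher and 6 lower with SN. All genes tested had shares of 13.5 and 6.18% with C3/C2, and of 14.2 and 9.75% with SN. The median was 0.19 with C3/C2 and 0.35 with SN. PPARGC1A, the coactivator of mitochondrial genes known as PGC-1α, rose by 1.94 (C3/C2) and 2.26 (SN), and 1.25 (TRAIL+C3/C2) and 1.67 (TRAIL+SN) on the log2 scale, with 3 of 4 NT arrays well above background. PPARGC1B, its relative, rose by 1.03 to 1.33 in the same 4 groups. RXRB, a partner of PPARs, fell by 1.06 (C3/C2) and 1.01 (SN), and 1.11 (TRAIL+C3/C2) and 1.28 (TRAIL+SN). The coactivator NCOA2 fell by 1.22 (C3/C2) and 1.11 (SN), and 1.44 (TRAIL+C3/C2) and 1.34 (TRAIL+SN), and the acetyltransferase CREBBP fell in the same groups by 1.05, 1.24, 1.32 and 1.23. NRIP1, a corepressor of nuclear receptors, fell by 1.12 (C3/C2) and 1.41 (SN), and 1.05 (TRAIL+C3/C2) and 1.36 (TRAIL+SN). RXRA, the partner most abundant in epithelia, differed by 0.064 with C3/C2 and 0.35 with SN. Both higher and lower genes thus lay among the receptors' partners.

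Of the 8 PPAR lists, that of lipid droplet and secreted targets had the highest share of genes called higher, with 8 of 13 for C3/C2 (ANGPTL4 and PLIN2 included) and 9 of 13 for SN, and 1 called lower with each. Among all genes 13.5% (C3/C2) and 14.2% (SN) were called higher, and 6.18 and 9.75% lower. The median of this list was 1.12 with C3/C2 and 1.51 with SN. PLIN5, the perilipin that ties lipid droplets to mitochondria, was at -5.09, -4.54, -5.04 and -4.93 in NT. It was at -0.11, 0.24, 0.080 and 0.30 in C3/C2. It was at 0.14, -0.033, -0.30 and -0.011 in SN. All arrays were well above background, and the rise of PLIN5 was 5.03 (C3/C2) and 4.85 (SN), and 5.31 (TRAIL+C3/C2) and 5.08 (TRAIL+SN) on the log2 scale. PLIN4, of the same family, rose by 1.19 (C3/C2) and 2.47 (SN), and 1.78 (TRAIL+C3/C2) and 2.97 (TRAIL+SN), and its difference between SN and C3/C2 was 1.28 (adjusted p = 2.88e-08). VNN1, a pantetheinase that is a PPARA target in liver, fell by 1.37 (C3/C2) and 1.58 (SN). FGF21, the hormone of the PPARA response in liver, was singled out after its values were seen. It was well above background on all 4 arrays of SN and of TRAIL+SN and on no array of the other 4 groups, at least 3.15-fold higher with SN than with C3/C2 (adjusted p = 2.75e-08).

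Of the genes for fatty acid uptake, binding and activation, 2 of 12 were called higher with C3/C2 and 3 of 12 with SN. The shares of all genes were 13.5 and 14.2%. None of the 12 was called lower, against 6.18 and 9.75% of all genes. The median of the list was 0.0042 with C3/C2 and 0.050 with SN, near that of all genes. SLC27A1, a fatty acid transporter, rose by 3.31 with C3/C2 and 3.29 with SN on the log2 scale, from levels of -0.45 to -0.081 in NT. CD36, a fatty acid receptor, was well above background on no NT array and on all arrays of C3/C2 and TRAIL+C3/C2, where it was at least 4.17- and 2.98-fold higher. It was well above background on 2 of 4 arrays of SN and on none of TRAIL+SN, and was lower with SN than with C3/C2 by 1.97 (adjusted p = 7.61e-06), the reverse of FGF21. The acyl-CoA synthetases ACSL3 and ACSL1 rose by 1.25 and 1.20 with SN, and differed from NT by 0.26 and 0.75 with C3/C2, under the fold of 2.

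Of the 23 genes of mitochondrial fatty acid oxidation, 2 were called higher with C3/C2 and 4 with SN (8.70 and 17.4%, against 13.5 and 14.2% of all genes). In the co-treatments TRAIL+C3/C2 and TRAIL+SN 1 and 3 of the 23 were, against 16.2 and 16.1% of all genes. The medians were 0.21 with C3/C2 and 0.33 with SN, against 0.076 and -0.016 over all genes. The form CPT1C, which is known from brain, rose by 3.86 with C3/C2 and 3.08 with SN, from levels of -5.61 to -4.81 in NT. ECI2, which handles unsaturated fatty acids, rose by 1.28 with C3/C2 and 1.31 with SN, and the carnitine transporter SLC22A5 rose by 1.12 with SN and 1.19 with TRAIL+SN. DECR1 fell by 1.02 with TRAIL+SN. The dehydrogenases ACADM and HADHA, which are common readouts of PPARA in liver, differed from NT by 0.15 and 0.44 with C3/C2 and by -0.062 and 0.26 with SN.

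In the list of pyruvate dehydrogenase kinases and phosphatases, PDK4 was the gene called, 1 of 6 with C3/C2 and 0 of 6 with SN. Among all genes 13.5 and 14.2% were called higher. In ketone body synthesis, CREB3L3 was called higher in all 4 groups with the acids or SN, and the other 4 genes were called higher in none. CREB3L3, a transcription factor of fasted liver, was well above background on no array of NT and TRAIL. Its level was higher than in NT by at least 74.7-fold (C3/C2) and 87.7-fold (SN), and 88.5-fold (TRAIL+C3/C2) and 83.8-fold (TRAIL+SN).

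Of 15 peroxisomal and microsomal genes, 2 were called higher with C3/C2 and 1 with SN. Neither exceeded the share of all genes, which was 13.5 and 14.2%. ABCD3, a peroxisomal transporter, rose by 1.03 on the log2 scale with TRAIL+C3/C2, and CROT fell by 1.06 with C3/C2. Of 14 glycerol, sterol and other genes, 3 were called higher with C3/C2 and 5 with SN, against 13.5 and 14.2% of all genes. None of the 14 was called lower, against 6.18 and 9.75%. PCK1, the gluconeogenic and glyceroneogenic enzyme, rose by 2.91 with C3/C2 and 2.56 with SN, with 2 of 4 NT arrays well above background. AQP3, a channel for water and glycerol, rose by 1.87 with C3/C2 and 1.90 with SN. GK, glycerol kinase, rose by 1.25 with SN and 1.93 with TRAIL+SN.

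**Figure D4:**
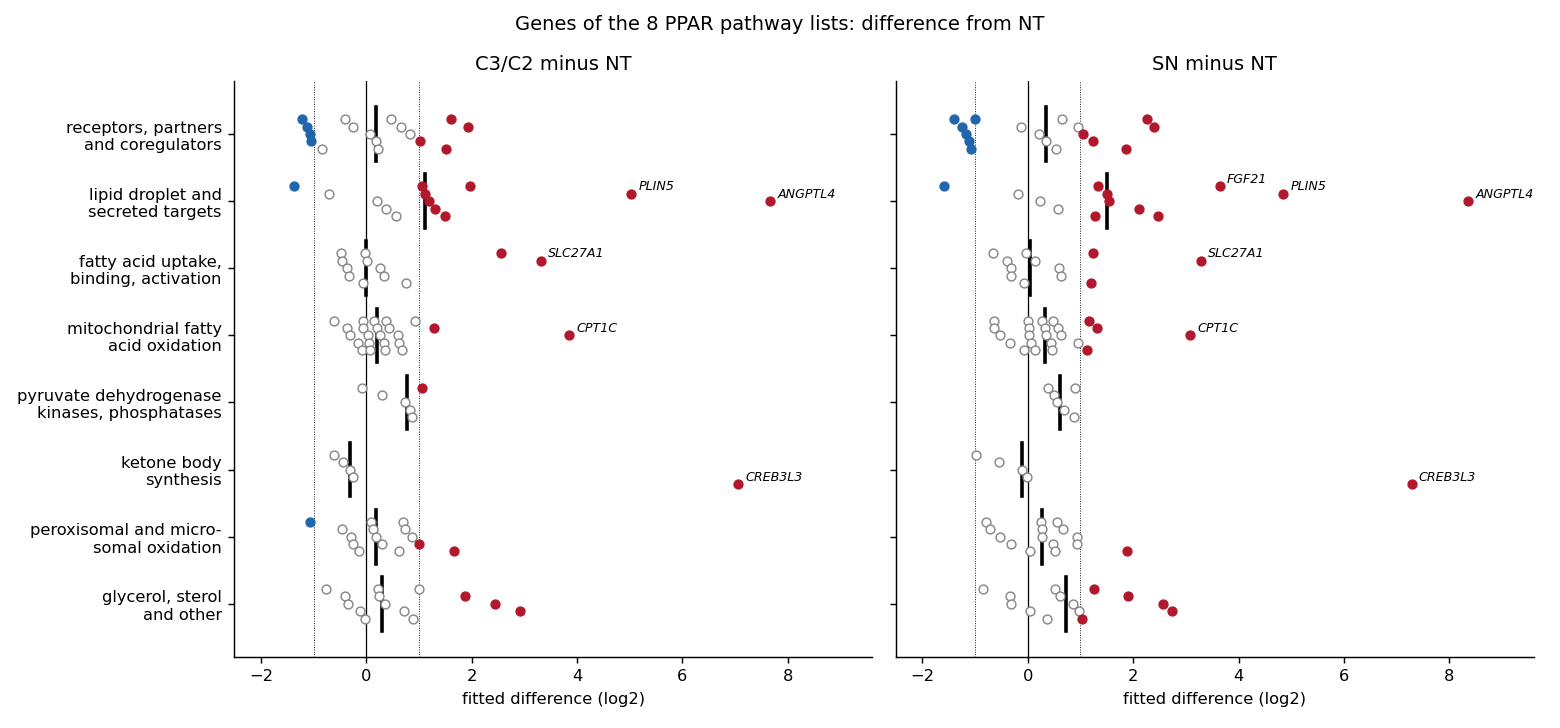
Each point is 1 of the tested genes of the 8 PPAR lists, by list, with its fitted difference from NT on the horizontal axis (log2) for C3/C2 on the left and SN on the right. Red points were called higher, blue points lower and open points not called, black bars are list medians, and genes past 3 are named; ANGPTL4, CREB3L3 and PLIN5 stand far to the right, while the medians of the lists lie between -0.31 and 1.51.

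Of the 8 genes of the angiopoietin-like family 3 passed the filter and were tested, ANGPTL4 among them. ANGPTL2 was well above background on no NT array and on 4 of 4 C3/C2 arrays, at least 1.39-fold higher there, and ANGPTL6 rose by 1.17 with TRAIL+C3/C2 on the log2 scale. Lists of other signals that are known to raise ANGPTL4, which hold other genes than ANGPTL4, were counted in the same way. Of 16 hypoxia genes, 5 were called higher with C3/C2 and 5 with SN, against 13.5 and 14.2% of all genes. Their medians were 0.60 and 0.57. PFKFB4 rose by 2.02 and 2.13, and ADM by 1.28 and 1.75, with C3/C2 and SN, whereas EGLN3 rose by 1.30 with C3/C2 and differed by 0.40 with SN. VEGFA rose by 1.15 with C3/C2 and 2.03 with SN, and CA9 differed by -0.079 and 0.29.

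Of 10 glucocorticoid-inducible genes, 7 were called higher with C3/C2 and 6 with SN, against 13.5 and 14.2% of all genes. Called lower were 0 and 1, against 6.18 and 9.75%, and the medians were 1.64 and 1.74. KLF9 rose by 2.87 and 3.43, the clock gene PER1 by 2.76 and 2.88 and the phosphatase DUSP1 by 2.11 and 2.72, with C3/C2 and SN. FKBP5, a defining target of the receptor, differed by -0.10 and 0.26. NFKBIA rose by 1.73 with TRAIL alone and ZBTB16 fell by 1.45 there, the genes of these lists called with TRAIL. Of 9 TGF-beta-inducible genes, 1 was called higher with C3/C2 and 4 with SN, with 1 called lower in each, against the same shares of all genes. SMAD7 and PMEPA1 rose by 1.68 and 1.65 with SN, and TGIF1 fell by 1.62 and 1.53 with C3/C2 and SN. Which of these signals reached ANGPTL4 was not tested.

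The genes whose pattern over the 24 arrays was most like that of ANGPTL4 were SH2D3C, DACT3, CREB3L3, CEND1 and ADC, by the root mean square difference of the levels after centring each gene on its mean. The values were 0.65, 0.69, 0.74, 0.95 and 1.18 on the log2 scale. They are a description, as the large step between untreated and treated arrays governs them. DACT3 was at a mean of -4.56 in NT, where it was measured on 4 of 4 arrays, and of 3.09 in C3/C2. SH2D3C was well above background on no NT array and was at least 38.0-fold higher with C3/C2. CREB3L3 was the one gene of these 5 that is in a PPAR list, that of ketone body synthesis. As the lists were chosen with earlier results of these data known, its place in one is a description only. Of the other members, PPARA came closest at 3.20, which is place 1285 of the genes tested, followed by PLIN2 at 3.31 (place 1658), CPT1A at 3.49 (place 2587) and PDK4 at 3.49 (place 2599). ACADVL, PPARG and FABP1 followed at places 7013, 9962 and 12694. The levels were centred but not scaled, so these places depend largely on the size of a gene's change. They do not show whether a member with a smaller change followed the same course as ANGPTL4.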

How the data were processed

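RNA of 24 HT29 samples was measured on 1-colour Agilent arrays, 4 per group. The deposited scanner files hold spot intensities that, per the file headers, the authors extracted with Agilent Feature Extraction 10.7.3.1, which subtracts and detrends the background; probe coordinates are those of hg19. The series table was found to hold the same intensities divided by the array median and served as an alternative. Groups came from the labels.

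From the intensities, outlier spots were left out, spots of a probe were averaged, and log2 values were centred on the 75th percentile of the array. A probe was kept where the 4 arrays of some group all marked it as well above background (27957 of 50599), and the brightest kept probe on average stood for a gene, which gave 20703 genes. limma 3.58.1 (R 4.3.3) was fitted across all of them over all 24 arrays, with Benjamini-Hochberg adjustment over all genes in each comparison; single values were also tested with an exact permutation test. Calls needed a fold of 2 and an adjusted p under 0.05. The script was tested on simulated data. Genes named from a list were, for each treatment against NT, at most 3 called higher and 3 lower with the largest fold and no overlap with NT; the 5 named genes nearest to ANGPTL4 in pattern were added, and exceptions are stated. The members and the lists were chosen with earlier results of these data known. Alternatives were other scalings, background corrections, filters, probe rules, slide and replicate blocks, averaged replicate pairs, and each array left out; the number of arrays limits the precision, with a median SE of 0.11. Some genes of the lists are counted but not reported here by name.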

Additional observations from a re-analysis of the deposited data

Results flagged for a closer look

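In TRAIL+SN, replicate 2 of PLIN2 stood apart from the other 3 arrays, at a level of -0.85 against -1.06 to -1.03. This was the 1 case found among 48 groups of member levels, where chance gives about 1 in 20. PDK4 departed from additivity in both co-treatments, by 0.54 on the log2 scale for TRAIL and C3/C2 (limma, adjusted p = 0.019) and by 0.51 for TRAIL and SN (adjusted p = 0.0053), with a mean level below NT for TRAIL alone and mean levels of the co-treatments above those of C3/C2 and of SN. PPARA departed in the other direction for TRAIL and SN, by -0.30 (adjusted p = 0.039), with levels of 1.30 to 1.48 in SN and of 1.10 to 1.28 in TRAIL+SN. With replicates 1 and 2, and 3 and 4, averaged, none of these 3 departures passed (adjusted p = 0.39, 0.11 and 0.20, or 0.18, 0.052 and 0.11 with the pair as a block).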

How the results depend on the processing

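ANGPTL4 was called higher in the 4 groups with C3/C2 or SN under every setting run that kept its probe (a filter for signal on all 24 arrays removes it), and its lower bounds moved. With C3/C2 and SN first and their co-treatments with TRAIL after, normexp gave 26.0, 41.5, 34.5 and 46.8. Scaling to the array median gave 96.6, 128 and 195 for all but SN, the values deposited by the authors 97.8, 129 and 198, and spike-in probes 105, 99.1 and 155; quantile normalization gave 170, 141 and 198 for all but C3/C2. The ANGPTL4 difference of 0.69 between SN and C3/C2 passed without a minimum fold, and its departure from additivity for TRAIL and C3/C2 lay between 0.70 and 1.11 without 1 array, passing without TRAIL replicate 3.

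Spike-in scaling left 1 member called higher in TRAIL+C3/C2 and 2 in TRAIL+SN, and of the 105 list genes 12 higher and 20 lower, and 17 and 15, with 1 lower in TRAIL. It turned TRAIL against NT to -0.087 for PPARG, and TRAIL+C3/C2 against NT to -0.65 for FABP1 and -0.19 for ACADVL. It turned TRAIL+C3/C2 against C3/C2 to -0.084 for ANGPTL4, -0.38 for PDK4, -0.46 for CPT1A, -0.21 for ACADVL, -0.48 for PPARA and -0.27 for PPARG, and TRAIL+SN against SN to -0.37 for ANGPTL4, -0.47 for PDK4, -0.56 for CPT1A, -0.38 for ACADVL and -0.58 for PPARG. Spike-in and median scaling turned PLIN2 between SN and C3/C2 to 0.085 and 0.0077. Median scaling and the authors' values turned ACADVL in C3/C2 to -0.094, and called 1 list gene higher in TRAIL and 12 lower in TRAIL+C3/C2. Normexp called 3, 3 and 4 list genes lower in C3/C2, SN and TRAIL+SN, and turned ZBTB16 in TRAIL+C3/C2 to 0.049. The mean of the probes turned PLIN2 to 0.030 in TRAIL and to 0.12 between TRAIL+SN and SN. Without a minimum fold, members higher were 7 in SN, 2 in TRAIL and 7 in TRAIL+SN, and lower 1 in C3/C2 and 2 in TRAIL; list genes higher and lower were 58 and 25 in C3/C2, 63 and 21 in SN, 21 and 12 in TRAIL, 59 and 24 in TRAIL+C3/C2, and 58 and 21 in TRAIL+SN. Leaving out 1 array gave 0 to 1 list genes higher and 0 to 1 lower in TRAIL. The causes of these shifts were not tested.

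Arrays of different groups share replicate numbers. Not every same-numbered pair correlated above 0.1 (lowest r 0.062, median 0.20 over 60 pairs), so the numbers were not taken as pairs in the main results, but 23 of 24 arrays correlated best with their own number, and the median r was 0.17 within replicates 1 and 2 or 3 and 4 and -0.17 between them. The methods name 2 experiments with duplicates, and the labels do not say whether the numbers mark them. With the replicate block the ANGPTL4 difference for C3/C2 was 7.67 and the counts of members and list genes were as without it. Replicates 1 and 2 against 3 and 4 as a block, chosen after seeing the data, changed none of these counts either. The block on the replicate number brought FABP1 in SN to an adjusted p of 0.00084 and PPARG in TRAIL+C3/C2 (-0.14) to 0.020, under the fold of 2. With these pairs of arrays averaged, also chosen later, the counts of members were the same and 27 or 28 list genes were higher in SN. Probes near background limit the precision of low levels.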
